A study of Mus musculus with 24 samples.

Results

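Fibro/adipogenic progenitors (FAPs) freshly sorted from the uninjured hindlimb muscle of old mice were compared with FAPs sorted in the same way from young mice. The comparison takes all 6 arrays titled old quiescent and all 6 titled young quiescent, 12 of the 24 bead arrays of the study. Old mice were 20 to 24 months old and young mice 2 to 4 months old. Both groups were wild-type male C57BL/6J mice, and for each array the tibialis anterior, gastrocnemius and quadriceps were pooled before the FAPs were isolated. The other 12 arrays hold old and young activated FAPs, 6 of each, from muscle taken 3 days after an injection of 50 µl of 50% glycerol. The labels call the 6 arrays of a group biological replicates. Which surface markers defined the sorted cells is not stated in the labels, and the cells were profiled in bulk.

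FAPs are the mesenchymal stromal cells that lie between muscle fibres. They carry Pdgfra, make much of the extracellular matrix of muscle, support muscle stem cells through secreted factors after injury, and can turn into adipocytes or matrix-depositing fibroblasts. In uninjured muscle they rarely divide. Ageing muscle regenerates less well, and the comparison asks which genes differ with age in FAPs before any injury.

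Each level below is a log2 normalized intensity of 1 probe, and 3 values for a group are its lowest, median and highest array. A difference is old minus young on the log2 scale, so that 1 unit is a 2-fold difference. Its standard error (SE, n = 6 arrays per group) comes from limma's spread of the gene shared by all 24 arrays. It is not the spread of the 12 quiescent arrays alone, and is too small where old quiescent arrays vary more than the other groups. Genes counted as called had an adjusted p under 0.05 in limma (1 model over 24 arrays, Benjamini-Hochberg adjustment over all features). A probe counted as detected on an array at a detection p under 0.01, which ranks it above nearly all negative controls. Between 7188 and 9365 probes were detected on old arrays, against 7371 to 9613 on young arrays, and the means differed by -588 (exact two-sided permutation test, p = 0.216). Pairs of old arrays had a median correlation over probes of 0.908, and pairs of young arrays one of 0.951. Pdgfra was bright on all 12 arrays, with 11.64, 12.79 and 12.99 in old arrays, against 12.56, 12.73 and 12.87 in young arrays. Pax7, the defining marker of muscle stem cells, was detected on 0 of 6 old and 0 of 6 young arrays. Both probes of Ptprc, which encodes the pan-leukocyte antigen CD45, were likewise detected on 0 of 6 old and 0 of 6 young arrays. A probe without signal does not show that a cell type is absent. The collagen gene Col1a1 was detected on 0 of 6 old and 1 of 6 young arrays. Laptm5, a gene of blood cells described below, was detected on 6 of 6 old and 6 of 6 young arrays.

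Of 7576 named genes, 34 were higher in old FAPs (0.449% of the genes tested) and 12 were lower (0.158%), 0.607% in either direction. The gene lists below are short, so at that share 0 or 1 called gene says little about a list. Those that rose include 6 chemokines, the acute phase protein Saa3, components of the T and B cell receptors and adaptors of blood cells, while 21 of the 34 were in none of the gene lists examined. Genes that fell include Sparc and Thy1, a secreted and a surface protein of stromal cells. All but 2 of the called genes differed at least 2-fold, 32 of them higher and 12 lower. In 26 of the 46 called genes, 18 higher and 8 lower, the 6 old arrays did not overlap the 6 young ones, which held for 1.15% of all genes. Over all features the median difference was -0.0132, and 964 genes had an unadjusted p under 0.05, of which 442 were higher and 522 lower. The calls rest on a spread shared by all 24 arrays: fitted to the 12 quiescent arrays alone, limma called 0 genes higher and 2 lower, Cachd1 and Sparc, with 917 genes at an unadjusted p under 0.05. Other scaling changed the split between the directions, with 29 higher and 26 lower in the authors' deposited log2 values and 42 higher and 8 lower after median scaling. Of the 46 genes 33 were also called in the deposited values, while Aif1, Ccl2, Ccl12, Cd79b, Cytip, Gnpda1, Mzb1, Napsa, Pafah1b3, Rassf4, Rerg, Scg3 and Sla were not (adjusted p = 0.0575 to 0.146). The detection filter admitted 3 of the higher genes, Cd3d, Cd3g and Mzb1, only through the old quiescent arrays. It admitted 3 of the lower ones, Rerg, Scg3 and Sephs1, only through the young quiescent arrays. Each of these genes needed detections in the group where it is high to be kept, so the filter favoured a difference. The count of higher genes was 66 without old array 4, 22 without old array 6, and 20, 22 and 21 without young arrays 2, 4 and 5. The count of lower genes was 24, 27 and 39 without old arrays 1, 2 and 4, and 7 without young array 6. An immune marker score, the mean of the macrophage, T cell and B cell lists, was also used as a covariate. With list members left out of the count, 9 genes were higher and 6 lower, and 3 of the 46 were among them. Aif1, Cd3d, Cd3g, Cd79b and Mzb1 of the 46 are list members and could not be among them. Of these only Cd3g kept an adjusted p under 0.05 in that fit. None of the 46 genes changed sign in any alternative run, and 24 of them were called without each of the 12 arrays in turn.

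**Figure D1:**
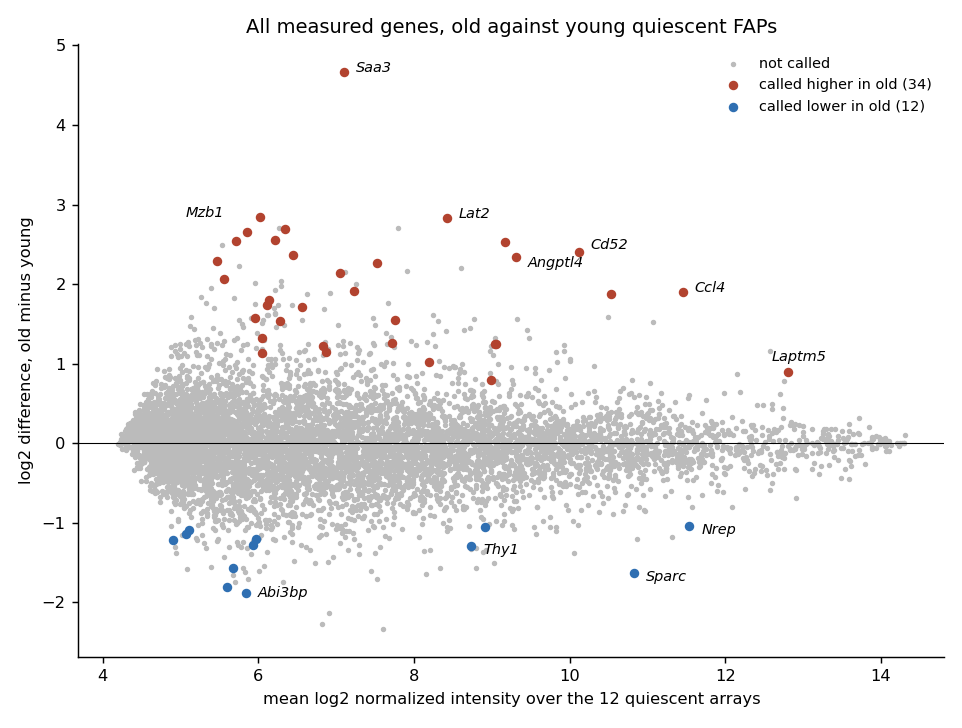
Log2 difference, old minus young, of every named gene (y axis) against its mean log2 normalized intensity over the 12 quiescent arrays (x axis). Red points are the 34 genes called higher and blue points the 12 called lower in old FAPs; Saa3 stands highest at 4.67 and Abi3bp lowest among the called genes at -1.88.

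Saa3, a serum amyloid A that stromal cells and macrophages of the mouse make in inflammation, showed the largest difference of the called genes. Its level was 8.89, 10.65, 6.62, 5.66, 11.62 and 13.18 in old arrays 1 to 6, against 4.31, 5.18, 4.39, 4.96, 5.12 and 4.65 in young arrays 1 to 6. The difference was 4.67 ± 0.81, or 25.4-fold (adjusted p = 0.00657; exact two-sided permutation test, p = 0.00216, the smallest that 6 against 6 arrays can give). All old arrays lay above all young ones, old array 4 only slightly and old array 6 the most. Groups that do not overlap always give this exact p, so it adds nothing to that statement. The same holds for Sparc and Thy1 below. The exact p-values are unadjusted, and the genes given one were chosen with earlier results of these data known. The probe was detected on 6 of 6 old and 3 of 6 young arrays. Of 9 measured acute phase genes, only Saa3 was called, 11.1% of the list against 0.607% of all genes. Of the 9 differences 8 were positive, with a median of 0.63. The promoter of Saa3 is shown because it holds several matches to the motifs searched. That of Sparc, the secreted matrix protein described below, stands beside it as the promoter of a called gene that fell. Both are 300 bases around the start site, 5′ to 3′ on the minus strand, in RefSeq's GRCm38.p6 (chr7:46715627-46715926 and chr11:55420031-55420330). Capitals mark matches to the C/EBP letters TTNNGNAA or to an interferon response element, searched on both strands.
Saa3: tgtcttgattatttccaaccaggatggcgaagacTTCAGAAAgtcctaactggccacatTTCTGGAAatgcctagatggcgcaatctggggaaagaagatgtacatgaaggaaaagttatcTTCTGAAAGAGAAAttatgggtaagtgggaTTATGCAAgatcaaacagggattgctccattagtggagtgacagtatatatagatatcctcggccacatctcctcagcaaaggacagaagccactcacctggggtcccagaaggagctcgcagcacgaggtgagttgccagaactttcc
Sparc: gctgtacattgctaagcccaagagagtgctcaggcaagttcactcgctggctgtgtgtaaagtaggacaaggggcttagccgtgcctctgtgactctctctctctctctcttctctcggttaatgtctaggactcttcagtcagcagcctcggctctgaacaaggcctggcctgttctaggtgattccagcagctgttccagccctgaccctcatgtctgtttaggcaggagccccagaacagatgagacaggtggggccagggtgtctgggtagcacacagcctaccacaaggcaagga
In Saa3 the C/EBP letters start at -216, -191, -129 and -99 from the start site, and the interferon response element runs from -125 to -116, overlapping the match that ends at -122. In Sparc neither was found, nor were the kappaB or CArG letters. Among all 27025 promoters of the table, 44.1% hold the C/EBP letters, 3.99% an interferon response element, 9.55% a kappaB motif and 1.81% a CArG box. Among the 6182 measured genes with a promoter, from which the called genes come, the shares were 37.1%, 3.88%, 12.5% and 1.63%. Promoters were matched for 17 of the 34 genes that rose and 7 of the 12 that fell. C/EBP letters were found in 5 of the 17 and 4 of the 7, and a kappaB motif in 4 of the 17, namely Lgals3, Nfkbid, Trex1 and Ubd, and in 1 of the 7, Cachd1. An interferon response element was found in Aif1, Cytip and Saa3 among the higher genes and in Alg1 among the lower ones. A match describes the letters only.

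**Figure D2:**
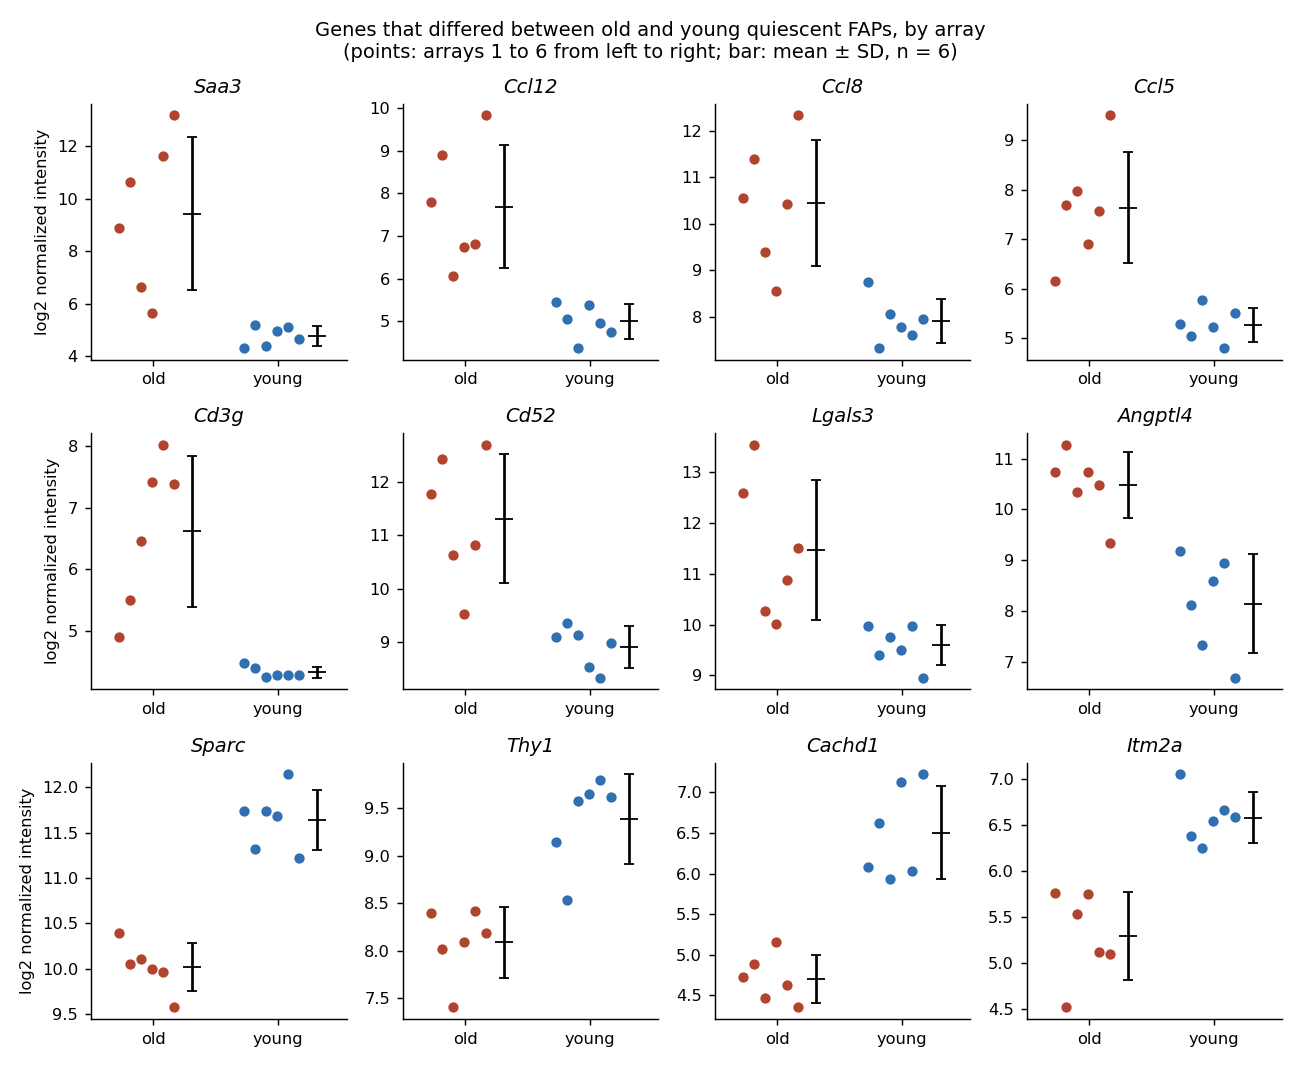
Log2 normalized intensity (y axis) of 12 called genes on the 6 old arrays (red, left) and the 6 young arrays (blue, right), with mean ± SD beside the points. Saa3 spans 5.66 to 13.2 in old arrays and 4.31 to 5.18 in young arrays, while the 6 old arrays of Sparc lie between 9.58 and 10.4, below all young arrays.

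Chemokines, the secreted proteins that draw leukocytes into tissue, were the list with the most called genes. Of 22 measured CC and CXC chemokines 6 rose and 0 fell, 27.3% of the list, against 0.607% of all genes called in either direction. The list was chosen with earlier results of these data known. Of the 22 differences 19 were positive, with a median of 0.44. Ccl2, Ccl7 and Ccl12 attract monocytes through the receptor Ccr2. Ccl12 had levels of 6.05, 7.31 and 9.83 in old arrays, against 4.37, 5.01 and 5.46 in young arrays (difference 2.70 ± 0.46, adjusted p = 0.00602). Its second kept probe differed by 1.76. Ccl2 had 6.18, 6.47 and 8.21 in old arrays, against 4.88, 5.40 and 5.83 in young arrays (difference 1.33 ± 0.29, adjusted p = 0.0287). For Ccl12 and Ccl2 the groups did not overlap, and old array 6 was highest for Ccl12 but old array 1 for Ccl2. Ccl7 overlapped, with 8.54, 9.73 and 10.51 in old arrays, against 7.82, 8.24 and 9.41 in young arrays (difference 1.25 ± 0.28, adjusted p = 0.0347). Ccl8, a ligand of Ccr8 in the mouse, had 8.54, 10.48 and 12.33 in old arrays, against 7.32, 7.86 and 8.74 in young arrays (difference 2.53 ± 0.48, adjusted p = 0.0092). Here the lowest old array, array 4, lay below the highest young array. Ccl4 and Ccl5, which attract T cells and monocytes, did not overlap. Ccl5 had 6.16, 7.63 and 9.499 in old arrays, against 4.80, 5.25 and 5.78 in young arrays (difference 2.36 ± 0.43, adjusted p = 0.00819), and Ccl4 had 11.42, 12.44 and 13.37 in old arrays, against 9.84, 10.57 and 11.10 in young arrays (difference 1.90 ± 0.33, adjusted p = 0.00602). The second kept probe of Ccl4 differed by 1.13, and the call of Ccl4 was lost with the mean of its probes (difference 1.51, adjusted p = 0.0689). The call of Ccl2 was lost without young array 2, 4, 5 or 6 (adjusted p = 0.0535 to 0.0675) and that of Ccl7 without old array 1, 2 or 6 or young array 2, 3, 4, 5 or 6 (adjusted p = 0.0547 to 0.0882). The macrophage marker score given next ran from 6.89 to 10.1 on old arrays, against 6.46 to 7.14 on young arrays. With the immune marker score as a covariate the differences of the 6 chemokines were 0.69 to 2.08 and none was called (adjusted p = 0.113 to 0.355). In activated FAPs the same list had a median age difference of -0.01. Of the 6 called chemokines, Ccl8 differed there by 1.45, Ccl12 by 1.23, Ccl4 by 0.53, Ccl5 by 0.02, Ccl7 by -0.05 and Ccl2 by -0.36. For none of the 6 was the age difference called as differing between quiescent and activated FAPs (adjusted p = 0.104 to 0.703).

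Markers of macrophages and monocytes leaned one way in old FAPs. All 20 measured members had a positive difference, with a median of 1.08, while over all features the median was -0.0132. Only Aif1, which encodes the macrophage protein Iba1, was called, 5% of the 20 against 0.607% of all genes. Its level was 7.51, 8.44 and 10.55 in old arrays, against 6.07, 6.12 and 7.34 in young arrays, without overlap (difference 2.27 ± 0.53, adjusted p = 0.0488), and its other 2 kept probes differed by 2.18 and 1.96. In bulk RNA, more cells of a type and more RNA per cell cannot be told apart. The mean level of the 20 markers was 8.75, 10.1, 7.09, 6.89, 6.96 and 8.17 on old arrays 1 to 6, against 6.46 to 7.14 on young arrays. Old arrays 1, 2 and 6 thus lay well above the young range, and old arrays 3, 4 and 5 within it. The median SD of a marker was 1.38 over old arrays, against 0.53 over young arrays. The call of Aif1 was lost without old array 1, 2 or 6, or without young array 1, 2, 3, 4 or 5 (adjusted p = 0.0674 to 0.102). Lgals3, the galectin that macrophages carry in large amounts, was 10.01, 11.20 and 13.53 in old arrays, against 8.96, 9.62 and 9.98 in young arrays, without overlap (difference 1.87 ± 0.41, adjusted p = 0.0287). Like the marker score it was highest on old array 2 and lowest on old array 4. Its call was lost without old array 1 or 6 or young array 2, 4 or 6 (adjusted p = 0.0556 to 0.0675).

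In old FAPs 2 genes of T cells rose. Of 20 listed T cell markers 5 passed the detection filter. Cd3d and Cd3g, subunits of the T cell receptor complex, were called, 40% of the 5 against 0.607% of all genes. Cd3g was detected on 6 of 6 old and 0 of 6 young arrays, with 4.90, 5.500, 6.46, 7.43, 8.02 and 7.39 in old arrays 1 to 6, against 4.48, 4.40, 4.26, 4.28, 4.28 and 4.28 in young arrays 1 to 6. Against the detection limit of the young arrays it was at least 3.33-fold higher (adjusted p = 0.00546). Cd3d was detected on 6 of 6 old and 1 of 6 young arrays, with 5.53, 6.99 and 9.28 in old arrays, against 4.19, 4.41 and 5.35 in young arrays (difference 2.66 ± 0.49, adjusted p = 0.00824). Cd3g peaked on old array 5 and Cd3d on old array 6. Cd3e, Cd4 and Cd8a were not among the 5. Both passed the filter only through the old arrays where they are high, so the list gives no support beyond these genes' values. Thy1, which mouse T cells carry as well as fibroblasts, was lower in the same old arrays. It was detected on 6 of 6 old and 6 of 6 young arrays. Its signal in these bulk samples cannot be assigned to a cell type, and the share of T cells was not tested.

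Of 19 listed genes of B cells and plasma cells 3 were measured, and 2 were called, 66.7% of the 3 against 0.607% of all genes. Cd79b, a signalling chain of the B cell receptor, had 5.43, 7.29 and 10.66 in old arrays, against 4.22, 4.86 and 6.06 in young arrays (difference 2.55 ± 0.60, adjusted p = 0.0499). Mzb1, a protein of the endoplasmic reticulum of antibody-producing cells, had 4.61, 5.46, 8.08, 6.93, 8.42 and 11.16 in old arrays 1 to 6, against 4.59, 4.42, 4.95, 4.56, 4.61 and 4.48 in young arrays 1 to 6 (difference 2.84 ± 0.65, adjusted p = 0.0417). It stayed within the young range on old array 1 and lay above it on the other 5. Both calls lie close to the threshold. That of Cd79b was lost in 9 of the 12 fits that left out 1 array, namely those without old array 1, 2, 5 or 6 or young array 1, 2, 3, 4 or 5 (adjusted p = 0.053 to 0.119). That of Mzb1 was lost in 8, those without old array 3 or 5 or any young array (adjusted p = 0.0605 to 0.0826). The antibody gene Ighm and Ms4a1 were not among the 3. Mzb1 passed the filter only through the old arrays where it is high, so the share of 66.7% gives no support beyond the values of these genes.

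Several called genes outside these lists are known from blood cells. Cd52, a small glycoprotein on the surface of lymphocytes and monocytes, had 9.53, 11.30 and 12.69 in old arrays, against 8.34, 9.05 and 9.37 in young arrays, without overlap (difference 2.40 ± 0.39, adjusted p = 0.00546). Lat2, an adaptor of B cells, mast cells and myeloid cells, had 8.45, 9.76 and 11.69 in old arrays, against 5.19, 7.52 and 8.47 in young arrays (difference 2.83 ± 0.52, adjusted p = 0.00819), and its second kept probe differed by 1.497. Sla, a Src-like adaptor that dampens antigen receptor signals, was detected on 5 old arrays and 1 young array (difference 2.54 ± 0.47, adjusted p = 0.00824). Old array 3 alone stayed at the young level, at 4.22, while the other 5 old arrays lay between 7.12 and 8.03. Cytip (1.58 ± 0.37), a leukocyte adhesion regulator, and Laptm5 (0.89 ± 0.21), a lysosomal membrane protein of blood cells, were called at an adjusted p of 0.0499 each, and lost the call in 10 and 8 of 12 fits that left out 1 array (adjusted p = 0.0648 to 0.119 and 0.0801 to 0.108). Mast cell markers (5 measured, median 0.98), NK and cytotoxic markers (3, 0.52), neutrophil markers (7, 0.39) and genes of MHC class II presentation (9, 1.01) held no called gene. Fcer1a, a subunit of the mast cell IgE receptor, was detected on 4 of 6 old and 0 of 6 young arrays (adjusted p = 0.0628). Among activated FAPs it was detected on 3 of 6 old and 1 of 6 young arrays. It therefore passed the filter only through the old quiescent arrays where it is high, and the mast cell median includes it. The neutrophil calprotectin genes S100a8 and S100a9 had wide overlap, with 7.80, 9.32 and 12.27 in old arrays, against 6.16, 6.99 and 9.89 in young arrays for S100a9 (adjusted p = 0.108). Of the 34 genes that rose, old array 6 held the highest value for 13 and old array 2 for 12, while old array 4 held the lowest for 14.

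**Figure D3:**
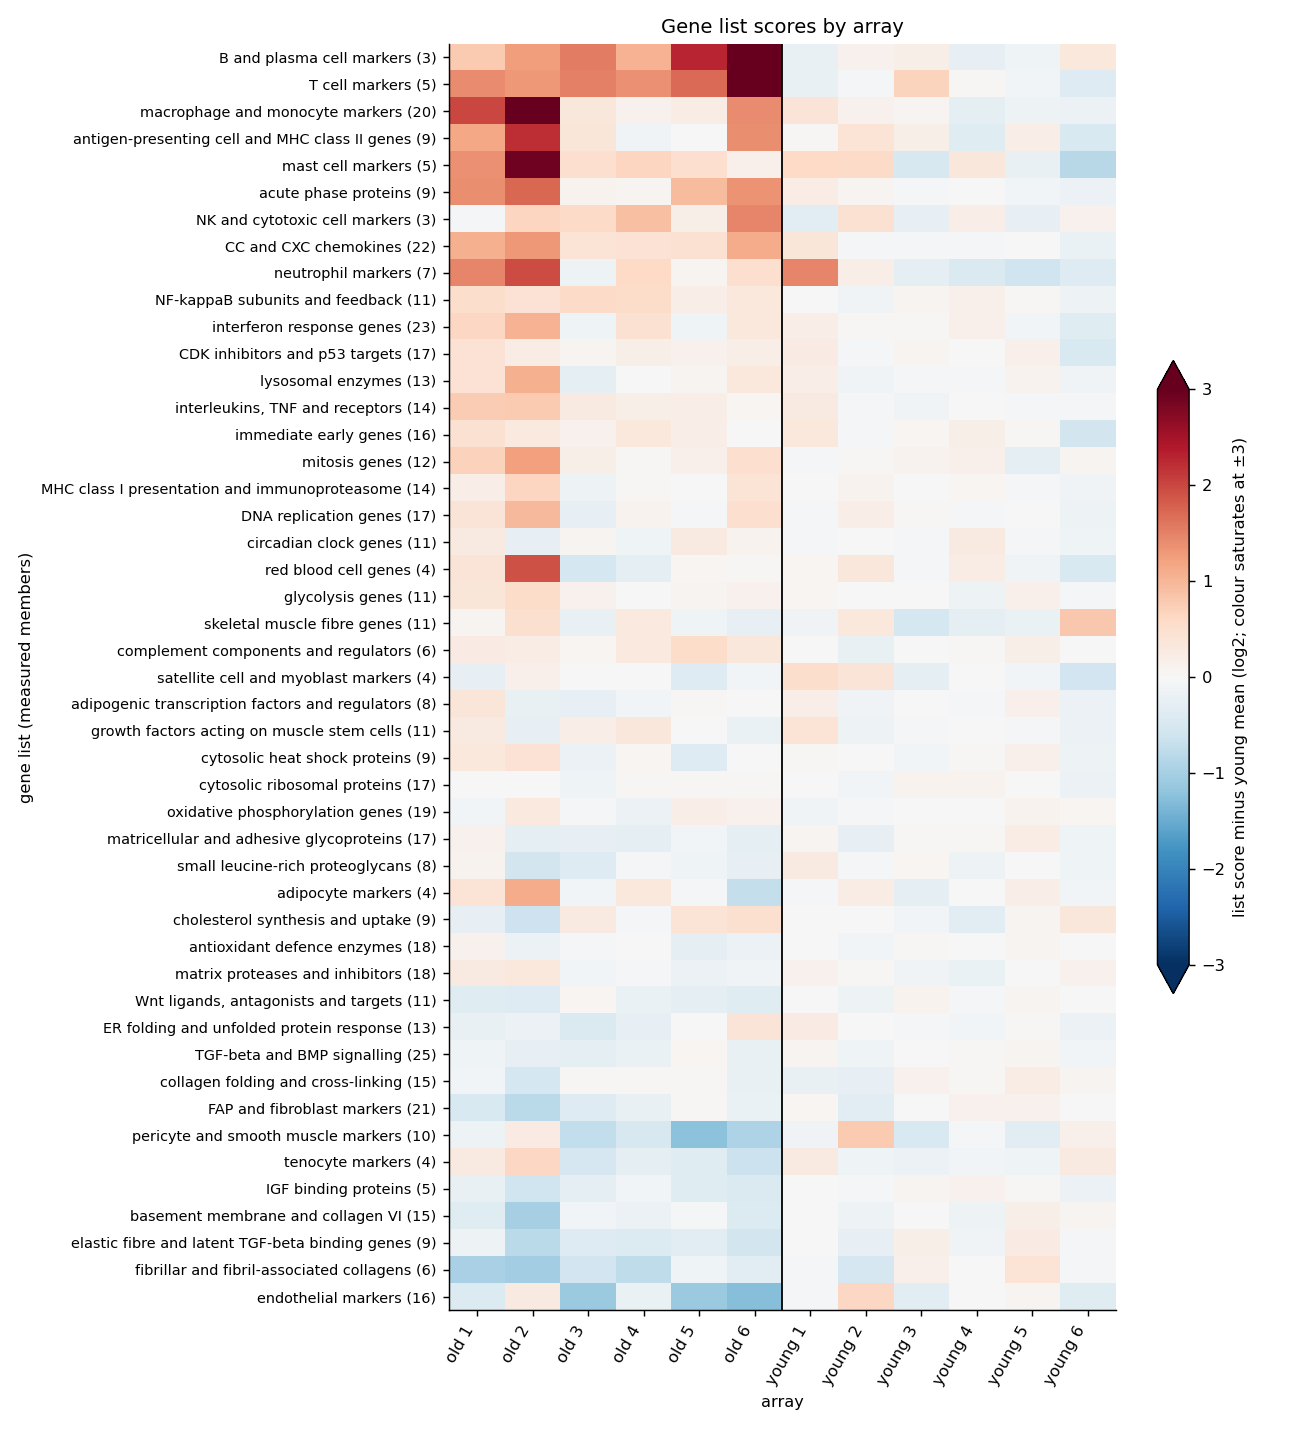
Mean log2 level of the measured members of each gene list (y axis, number of members in brackets) on the 6 old and 6 young arrays (x axis), minus the mean of the young arrays. Lists are ordered by their median age difference; the macrophage list is reddest on old 2 and old 1, and the endothelial and fibrillar collagen lists are blue on most old arrays.

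Nfkbid, Zc3h12a, Ubd and Kdm6b, which are in none of the lists, rose. Nfkbid, an atypical nuclear IkappaB protein, had 6.57, 8.08 and 9.35 in old arrays, against 4.88, 6.06 and 7.27 in young arrays (difference 2.14 ± 0.42, adjusted p = 0.0117). Zc3h12a, the ribonuclease Regnase-1 that degrades cytokine mRNAs, had 7.07, 7.38 and 7.89 in old arrays, against 5.85, 6.24 and 6.48 in young arrays (difference 1.22 ± 0.20, adjusted p = 0.00559). Its old arrays were close together and all above the young ones, a tighter pattern than that of Saa3. Of 11 measured NF-kappaB subunits and feedback genes 0 were called, 10 had a positive difference and the median was 0.33. Nfkbiz, another nuclear IkappaB, differed by 1.16 ± 0.28 (adjusted p = 0.0548). Ubd, a ubiquitin-like protein induced by cytokines, was detected on 6 of 6 old and 1 of 6 young arrays (difference 2.07 ± 0.39, adjusted p = 0.00975). Kdm6b, a histone H3 lysine 27 demethylase, differed by 0.79 ± 0.18 without overlap (adjusted p = 0.0344), and its second probe by 0.47. The call of Kdm6b was lost with the mean of its probes (adjusted p = 0.154) and in 6 of 12 fits that left out 1 array (adjusted p = 0.0569 to 0.0935).

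Among 23 interferon response genes 1 rose, Oasl2, an interferon-induced protein of the oligoadenylate synthetase family, with 8.05, 8.41 and 9.25 in old arrays, against 5.86, 6.92 and 7.83 in young arrays (difference 1.55 ± 0.32, adjusted p = 0.0218). Its groups did not overlap, and the call was lost without old array 6 or young array 6 (adjusted p = 0.0549 to 0.0557). The list's called share was 4.35%, against 0.607% of all genes, and its median was 0.28, with 18 positive differences. Trex1, an exonuclease that clears DNA from the cytosol, differed by 1.15 ± 0.22 (adjusted p = 0.00933), and its second probe by 1.10. Genes of MHC class I presentation (14 measured, 0 called) had a median of 0.18, interleukins, TNF and receptors (14, 0 called) 0.21 and complement genes (6, 0 called) 0.08. Il6 had 6.66, 7.27 and 8.48 in old arrays, against 5.57, 6.301 and 6.99 in young arrays (difference 1.18 ± 0.37, adjusted p = 0.132), and Il33, an alarmin of FAPs, differed by 0.58 ± 0.24 (adjusted p = 0.304). C4b of the complement cascade did not overlap between the groups, with 10.83, 11.18 and 11.53 in old arrays, against 9.49, 10.60 and 10.71 in young arrays, and did not pass the test (adjusted p = 0.134).

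Angptl4, a secreted inhibitor of lipoprotein lipase, had 9.33, 10.60 and 11.27 in old arrays, against 6.69, 8.36 and 9.17 in young arrays, without overlap (difference 2.33 ± 0.42, adjusted p = 0.00819). Its highest old array was array 2 and its lowest array 6. Mt2, a metal-binding metallothionein, had 9.37, 9.70 and 10.08 in old arrays, against 7.42, 8.56 and 8.97 in young arrays, without overlap (difference 1.24 ± 0.25, adjusted p = 0.0161). Insl6, an insulin-like peptide known from testis, had 7.09, 7.35 and 8.01 in old arrays, against 4.26, 5.88 and 6.38 in young arrays, also without overlap (difference 1.72 ± 0.31, adjusted p = 0.00819). Stau2, a protein that binds double-stranded RNA, differed by 1.54 ± 0.29 (adjusted p = 0.0092). Napsa, an aspartic protease, differed by 1.92 ± 0.42, Efcab6 by 1.80 ± 0.40, Rassf4, a Ras-association protein, by 1.73 ± 0.37 and the nuclear protein Trnp1 by 1.26 ± 0.29 (adjusted p = 0.034, 0.0326, 0.0287 and 0.0494). Rassf4 has 4 kept probes, and the other 3 differed by 0.16, 1.62 and 0.66. The second probe differed by 0.86 for Napsa, by 0.42 for Trnp1 and by 1.71 for Efcab6. With the mean of the probes Napsa, Trnp1 and Rassf4 were not called (adjusted p = 0.139, 0.0826 and 0.087). Of 12 fits that left out 1 array, the call was lost in 8 for Napsa, 8 for Efcab6, 6 for Rassf4 and 9 for Trnp1 (highest adjusted p = 0.0802, 0.0764, 0.0679 and 0.115). Gnpda1, a glucosamine-6-phosphate deaminase, and Pafah1b3, a subunit of a platelet-activating factor hydrolase, differed by 1.13 ± 0.27 and 1.03 ± 0.24 (adjusted p = 0.0499 for each). Their calls were lost in 8 and 10 of 12 fits that left out 1 array (adjusted p = 0.0697 to 0.119 and 0.0587 to 0.109).

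Sparc, a collagen-binding matricellular protein that stromal cells secrete, fell in old FAPs. Its level was 10.39, 10.05, 10.11, 9.996, 9.96 and 9.58 in old arrays 1 to 6, against 11.73, 11.32, 11.74, 11.68, 12.14 and 11.22 in young arrays 1 to 6. The 6 old arrays lay close together and all below the young ones, old array 6 being lowest. The difference was -1.63 ± 0.30, or 3.08-fold lower (adjusted p = 0.00819; exact two-sided permutation test, p = 0.00216), and the second kept probe differed by -1.49. Sparc was called without each array in turn and in the 12 quiescent arrays alone (adjusted p = 0.00944). With the immune marker score as a covariate its difference was -1.23 and did not pass (adjusted p = 0.148). Of 17 measured matricellular and adhesive glycoproteins 0 rose and 1 fell, Sparc, 5.88% of the list against 0.607% of all genes. The median of the list was -0.02 (0.10 after median scaling). Ccn4, the matricellular protein WISP1 that FAPs supply to muscle stem cells, was detected on 3 of 6 old and 5 of 6 young arrays, with 4.35, 5.27 and 6.51 in old arrays, against 5.00, 6.31 and 7.43 in young arrays (difference -0.79 ± 0.49, adjusted p = 0.524; exact two-sided permutation test, p = 0.19).

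Thy1, the surface glycoprotein CD90 of many fibroblasts, was the one FAP and fibroblast marker of 21 measured that was called (4.76% against 0.607% of all genes). Its level was 7.41, 8.14 and 8.42 in old arrays, against 8.53, 9.60 and 9.79 in young arrays. All old arrays lay below all young arrays, with young array 2 the nearest to them. The difference was -1.30 ± 0.29, or 2.46-fold lower (adjusted p = 0.0347; exact two-sided permutation test, p = 0.00216). The call was lost without the detection filter (adjusted p = 0.0746) and without old array 2, 3 or 6 or young array 3, 4, 5 or 6 (adjusted p = 0.052 to 0.0958). Of the 21 markers 19 had a negative difference, with a median of -0.19. The defining FAP marker Pdgfra differed by -0.10 ± 0.22, and the progenitor markers Pi16 and Dpp4 by -0.12 ± 0.22 and -0.16 ± 0.33 (adjusted p = 0.891, 0.868 and 0.887). Pdgfra on old array 2 was 11.6, below the other 11 arrays, and the same array had the highest macrophage score. The mean level of the 21 markers was 9.45 to 10.3 in old arrays, against 9.94 to 10.4 in young arrays.

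The other 10 genes that fell share no list among those examined, apart from Id1. Cachd1, related to the auxiliary subunits of voltage-gated calcium channels, had 4.35, 4.68 and 5.16 in old arrays, against 5.94, 6.36 and 7.22 in young arrays, without overlap (difference -1.80 ± 0.30, adjusted p = 0.00559). It was detected on 2 of 6 old and 6 of 6 young arrays. Itm2a, a transmembrane protein, had 4.52, 5.33 and 5.76 in old arrays, against 6.24, 6.57 and 7.05 in young arrays (difference -1.28 ± 0.21, adjusted p = 0.00546), and Nrep, a small intracellular protein linked to myofibroblasts, had 10.63, 10.96 and 11.44 in old arrays, against 11.86, 12.08 and 12.33 in young arrays (difference -1.04 ± 0.20, adjusted p = 0.0117). Neither overlapped between the groups. Nrep was not called after median scaling (adjusted p = 0.0926). Id1, a target of BMP signalling that blocks basic helix-loop-helix factors, had 7.52, 8.37 and 9.01 in old arrays, against 8.94, 9.49 and 9.88 in young arrays (difference -1.06 ± 0.23, adjusted p = 0.0326). Its call was lost without old array 3, 5 or 6 or young array 2, 4 or 5 (adjusted p = 0.0546 to 0.0861). It was the only called gene of 25 measured in TGF-beta and BMP signalling (4% against 0.607% of all genes), where the median was -0.14. Abi3bp, an extracellular matrix protein, differed by -1.88 ± 0.37 (adjusted p = 0.0128), but its second kept probe differed by 0.05, so the probes disagree. Sephs1, a selenophosphate synthetase homologue, was detected on 0 of 6 old and 6 of 6 young arrays and was at least 1.37-fold lower (adjusted p = 0.0211). Alg1, a mannosyltransferase of glycan assembly, differed by -1.57 ± 0.33, the zinc finger gene Zfp979 by -1.20 ± 0.27, the secretogranin Scg3 by -1.14 ± 0.23 and the Ras-like gene Rerg by -1.09 ± 0.24 (adjusted p = 0.0222, 0.0347, 0.0132 and 0.034). Each of these 4 was detected on 6 young arrays and on at most 3 old arrays, so that their levels in old FAPs lie near background. Scg3, Rerg and Sephs1 passed the filter only through the young arrays where they are high. Calls were lost without old array 6 or young array 2, 5 or 6 for Alg1 (adjusted p = 0.0534 to 0.0617), in 6 of 12 fits that left out 1 array for both Zfp979 and Rerg (adjusted p = 0.0609 to 0.0935 and 0.0574 to 0.0834), and in 4 for Sephs1 (adjusted p = 0.0517 to 0.0638).

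Genes of the structural matrix had mostly negative differences without passing the test. All 6 measured fibrillar collagens were negative with a median of -0.61 and 0 called, and the median of the same genes was -0.61 between old and young activated FAPs. Col3a1, a main fibrillar collagen of muscle stroma, had 8.91, 9.53 and 10.17 in old arrays, against 9.85, 10.54 and 11.08 in young arrays (difference -0.98 ± 0.42, adjusted p = 0.321). Basement membrane and collagen VI genes (15 measured) had a median of -0.39 with 13 negative (-0.13 after median scaling and -0.25 in the deposited values), and Nid1, which links laminin to collagen IV, did not overlap, with 7.69, 8.96 and 9.42 in old arrays, against 9.43, 9.69 and 9.86 in young arrays (adjusted p = 0.161). Elastic fibre and latent TGF-beta binding genes (9) had a median of -0.52 (-0.23 in the deposited values), and Ltbp4 did not overlap, with 9.51, 10.19 and 10.34 in old arrays, against 10.61, 10.76 and 10.91 in young arrays (adjusted p = 0.119). Igfbp6, a binding protein of insulin-like growth factors, also did not overlap, with 11.27, 11.73 and 12.05 in old arrays, against 12.14, 12.43 and 12.96 in young arrays (adjusted p = 0.168). Collagen folding and cross-linking genes (15), matrix proteases and inhibitors (18) and small leucine-rich proteoglycans (8) held 0 called genes, with medians of -0.14, -0.09 and -0.04, the last 0.12 after median scaling. Mmp2 differed by -0.61 ± 0.23, Timp1 by 0.65 ± 0.29 and Timp3 by -0.21 ± 0.29 (adjusted p = 0.233, 0.336 and 0.81).

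Genes often named in muscle ageing did not pass the test in quiescent FAPs. Cdkn2a, the senescence gene that encodes p16, was detected on 1 of 6 old and 1 of 6 young arrays, so a difference was not detectable at this signal. Cdkn1a, which encodes p21, had 8.02, 8.50 and 9.10 in old arrays, against 7.81, 8.26 and 8.44 in young arrays (difference 0.34 ± 0.28, adjusted p = 0.656), and the 17 CDK inhibitors and p53 targets had a median of 0.24 with 0 called. Growth factors that act on muscle stem cells (11 measured) had a median of 0.03, with Igf1 at 0.11 ± 0.17 and Fst at -0.36 ± 0.42. The adipogenic regulator Pparg was detected on 2 of 6 old and 2 of 6 young arrays, and the 8 adipogenic factors measured had a median of 0.07. Genes of DNA replication (17) and mitosis (12) had medians of 0.17 and 0.19, and 11 of the 12 mitosis genes were positive, with 0 called. Wnt genes (11) had a median of -0.11, immediate early genes (16) of 0.20, lysosomal enzymes (13) of 0.23 and glycolysis genes (11) of 0.13, again with 0 called. Oxidative phosphorylation genes (19) and cytosolic ribosomal proteins (17) had medians of -0.01 and -0.00, which became 0.29 and 0.37 after median scaling. Muscle fibre genes (11), satellite cell markers (4) and red blood cell genes (4) had medians of 0.09, 0.07 and 0.15.

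The spread between arrays is given as a description, without a test. The SD over 6 arrays was larger in old than in young FAPs for 70.9% of genes, with a median SD of 0.53 in old and 0.39 in young FAPs. Of the 34 genes that rose, 27 had the larger SD in old FAPs, as had 5 of the 12 that fell. Saa3 had an SD of 2.92 in old arrays, against 0.37 in young arrays, and Sparc 0.26 in old arrays, against 0.33 in young arrays. Saa3 thus covered a wide range of levels in old FAPs and Sparc a narrow one at both ages. Of 34 genes that rose, 31 were detected on 6 of 6 old arrays and 17 on 6 of 6 young arrays.

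To ask whether age acts alike before and after injury, the difference between old and young quiescent FAPs was set against that between old and young activated FAPs, which share no array with them. In activated FAPs 21 genes were called between old and young (0.277%), and 0 of the 46 genes called in quiescent FAPs were among them. Of these 46, 30 had the same sign in activated FAPs, 25 of the 34 higher and 5 of the 12 lower. Saa3 differed by -0.11 ± 0.81, Sparc by -0.54 ± 0.30, Thy1 by -0.96 ± 0.29 and Ccl12 by 1.23 ± 0.46 between old and young activated FAPs. A call in one state and none in the other does not show that the states differ, so the difference of the differences was tested. It was called for 15 genes (0.198%), 2 positive and 13 negative, of which 11 are named here, and 3 of the 46 genes were among these: Angptl4, Stau2 and Cachd1. For Angptl4 the difference was 2.33 ± 0.42 in quiescent and -0.65 ± 0.42 in activated FAPs (2.98 ± 0.59 between them, adjusted p = 0.0276). Stau2 differed by 1.54 ± 0.29 in quiescent and -0.57 ± 0.29 in activated FAPs (adjusted p = 0.0223), and Cachd1 by -1.80 ± 0.30 and 0.75 ± 0.30 (adjusted p = 0.009). The Stau2 call was lost without the detection filter (adjusted p = 0.0532). Cachd1 was detected on 2 of 6 old quiescent, 5 of 6 old activated and 1 of 6 young activated arrays, so part of its levels lie near background. The Angptl4 call was lost without young quiescent array 2 or 6 (adjusted p = 0.0525 to 0.0601), without old activated array 4 (adjusted p = 0.0523) and without the detection filter (adjusted p = 0.089). For Saa3, at 4.77 ± 1.15, the difference of differences did not pass (adjusted p = 0.104).

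Among the negative ones were 3 genes known from endothelium, Robo4, Gpihbp1 and Icam2. Robo4, a guidance receptor of vessels, differed by -0.78 ± 0.37 in quiescent and 2.16 ± 0.37 in activated FAPs, Gpihbp1, which anchors lipoprotein lipase in capillaries, by -0.68 ± 0.34 and 2.09 ± 0.34, Icam2 by -1.03 ± 0.34 and 1.28 ± 0.34, and the transcription factor Tcf15 by -1.17 ± 0.35 and 1.82 ± 0.35 (adjusted p of the difference of differences 0.00942, 0.009, 0.0433 and 0.009). The sulfotransferase Sult1a1 (-2.84 ± 0.53), Rbp7, a retinol-binding protein (-2.27 ± 0.39), alpha globin Hba-a1 (-2.31 ± 0.40) and Ltbp4 (-1.495 ± 0.28) were negative too. Without the detection filter the call of Sult1a1 was lost (adjusted p = 0.0532), as was that of Ltbp4 after median scaling (adjusted p = 0.0809). The call of Icam2 was lost without the detection filter (adjusted p = 0.117), in the deposited values (adjusted p = 0.0671), without old activated array 4 (adjusted p = 0.0752), and without old quiescent array 3 or 6 or young quiescent array 1, 2, 4, 5 or 6 (adjusted p = 0.0578 to 0.101). Over the 16 measured endothelial markers the median age difference was -0.68 in quiescent and 0.86 in activated FAPs, with 15 of 16 negative in quiescent FAPs and 0 called there. Their mean level was 8.08 to 9.61 in old arrays, against 8.99 to 9.96 in young arrays among quiescent FAPs. Pericyte and smooth muscle markers (10) had a median of -0.25 in quiescent FAPs, and Acta2 differed by -0.24 ± 0.24 (adjusted p = 0.721). The count of 15 was 39 without old quiescent array 2, 28 without old quiescent array 4 and 10 without old activated array 4.

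**Figure D4:**
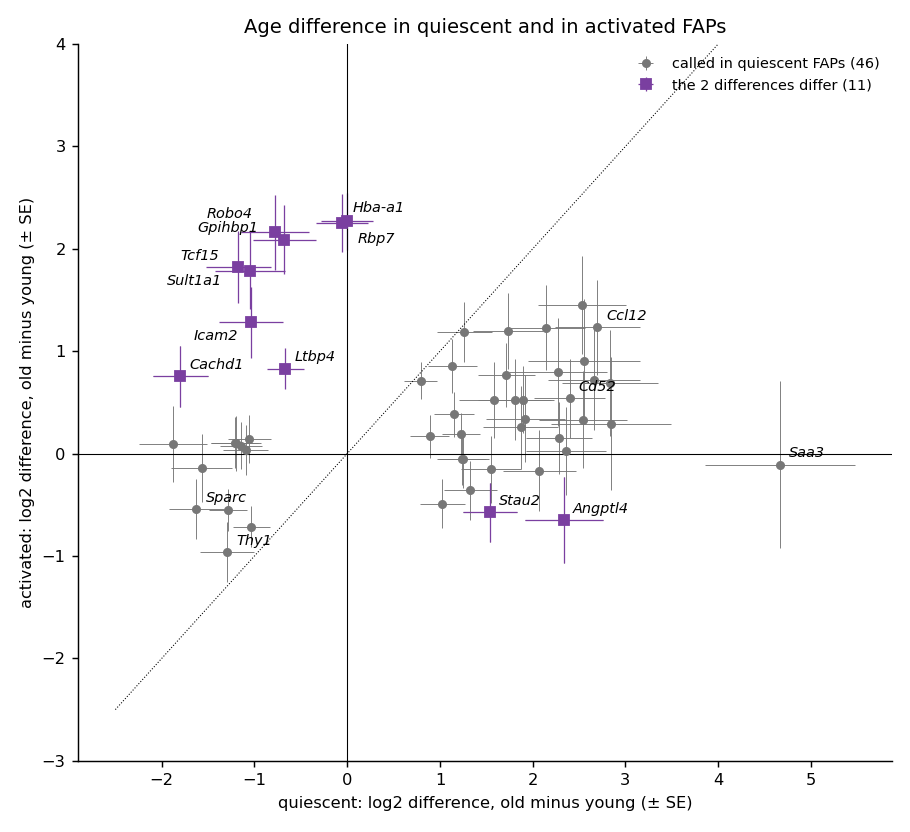
Age difference (log2, old minus young) in activated FAPs (y axis) against that in quiescent FAPs (x axis), each with its SE, for the 46 genes called in quiescent FAPs (grey) and the 11 named genes whose 2 differences differ (purple). The dotted line marks equal differences; Saa3 lies at 4.67 and -0.11, and the endothelial genes Robo4 and Gpihbp1 lie left of 0 in quiescent FAPs and above 2 in activated FAPs.

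**Figure D5:**
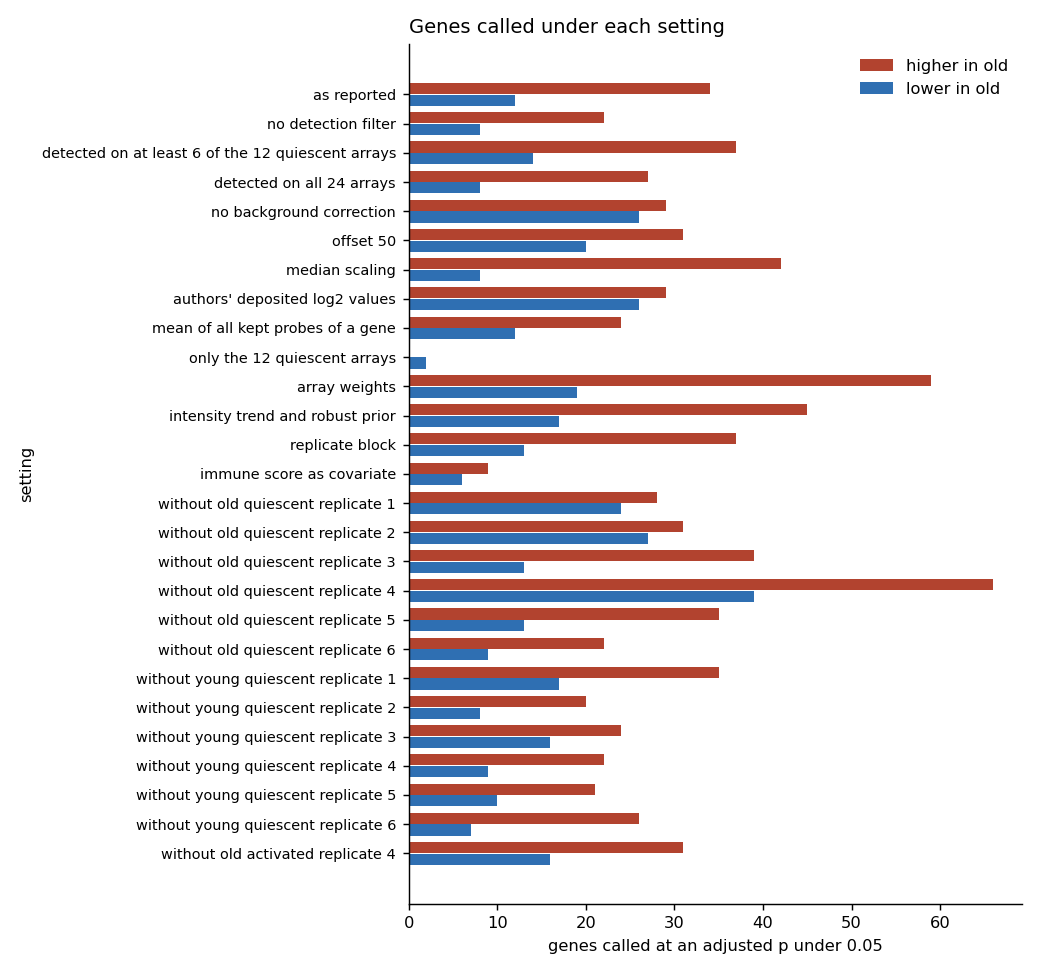
Number of genes called at an adjusted p under 0.05 (x axis) as higher (red) or lower (blue) in old quiescent FAPs under each setting (y axis). The reported setting calls 34 and 12, the fit to only the 12 quiescent arrays 0 and 2, and leaving out old array 4 calls 66 and 39.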

How the data were processed

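Amplified, biotin-labelled RNA of 24 FAP samples, 6 per group, was hybridised to Illumina bead arrays. Per the file headers, the deposited table holds 25697 probes, each with an intensity that was not normalized and a detection p-value. The authors' deposited log2 values served as an alternative; their median was 6.71 on every array, and they lay within 0.118 of the log2 of the quantile-normalized intensities. The submitters' processing notes name Partek, without version or role. Column names carry a letter that is the same within each group; since its meaning is not given, it cannot be told apart from the group. Neither chips nor scan batches are named in the labels.

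The detection p-values served to correct background (nec of limma 3.58.1 in R 4.3.3, offset 16), followed by quantile normalization and log2. A probe was kept if detected (p under 0.01) on 6 or more of the 24 arrays, as 10048 were. Each gene was represented by its brightest kept probe and named by RefSeq through its Entrez identifier, leaving 7576 named genes and 572 unnamed probes, of which 1 was called and is not counted. Arrays give no counts, and their number limits the precision; nothing states that the samples of a group came from separate mice beyond the words biological replicates. Differences were tested with limma (lmFit, eBayes) in 1 model of 4 group means. For a gene detected on no array of a group the fold is a bound: the mean of the bright group is set against a floor, on each array the lowest signal of any detected probe or the probe's own signal if that is higher. A list's score is the mean of its measured members on an array.

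Genes named are the 20 called genes with the highest and the 20 with the lowest difference, from 48 lists up to 4 called members per direction or 2 uncalled ones with the largest differences, the 8 highest and 8 lowest genes of the difference of differences, the 10 genes with the highest SD in old arrays, and 22 further genes. Outside this rule 12 called genes were named after their values were seen: Insl6, Cytip, Ccl2, Trnp1, Ccl7, Mt2, Zc3h12a, Trex1, Gnpda1, Pafah1b3, Laptm5 and Kdm6b. The comparison, the lists and the rule were chosen with earlier results of these data known. Of the 22 genes, Col1a1, Pax7, Ptprc and Tgfb1 did not pass the detection filter. Replicate numbers were not taken as pairs: deviations of same-numbered old and young arrays correlated by 0.0109 to 0.182, above 0.1 for 1 number only.

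A simulation of old against young quiescent arrays (5 runs, 8148 features, 200 of them changed) recovered 43.8% of 2-fold and 90.4% of 4-fold changes, with 3.17% false calls. It drew independent normal values with the same SD of a gene in every group. In the data the SD was larger in old arrays for 70.9% of genes. The simulated shares therefore hold for an equal spread only and do not give the false calls of this comparison. Alternatives changed the filter, background correction, scaling, probe rule, arrays in the fit, array weights, prior, replicate block and an immune marker covariate, and left out each quiescent array in turn.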

Additional observations from a re-analysis of the deposited data

Results flagged for a closer look

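The levels of the called genes and of the further genes chosen by name, and the numbers of detected probes, were searched in each group of 6 quiescent arrays for single arrays that stood apart. In 15 of 126 groups (11.9%), 7 old and 8 young, the gap between the extreme array and its nearest neighbour was large for its range by Dixon's test, where chance gives about 1 in 20. In old FAPs the low arrays were array 3 for the adaptor Sla at 4.22, array 2 for Efcab6 at 4.77, array 4 for Cytip at 4.80 and array 2 for Pdgfra at 11.6. The high ones were array 1 for Ccl2 at 8.21, array 6 for Cdkn2a at 5.90 and array 1 for Sephs1 at 4.83. In young FAPs high arrays were array 3 for Mzb1 at 4.95 and for Cd3d at 5.35, array 2 for Ubd at 5.23, array 4 for Trex1 at 6.88 and array 1 for Laptm5 at 13.1. Low ones were array 3 for Cdkn1a at 7.81 and array 2 for Igf1 at 9.53 and for Pi16 at 12.7.

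The age difference in quiescent FAPs differed from that in activated FAPs in 11 named genes in limma's test. The difference of the differences was 2.98 for Angptl4 and 2.11 for Stau2, more positive in quiescent FAPs. It was -2.27 for Rbp7, -2.31 for Hba-a1, -1.50 for Ltbp4, -2.77 for Gpihbp1, -2.94 for Robo4, -2.31 for Icam2, -2.84 for Sult1a1, -2.997 for Tcf15 and -2.56 for Cachd1, more negative in quiescent FAPs.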

How the results depend on the processing

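The 34 higher, 12 lower and 15 genes of the difference of differences came to 22, 8 and 9 without the detection filter, which tests 16593 genes. Lower genes numbered 26 without background correction and in the authors' deposited log2 values, and 20 with an offset of 50. Fitted to only the 12 quiescent arrays, 0 genes were higher and 2 lower. That fit takes the spread from fewer arrays and from these groups alone, where the SD was larger in old arrays for 70.9% of genes. Why the counts fell was not tested. Array weights gave 59, 19 and 28. The immune marker score as a covariate gave 9, 6 and 50, with 3 of the 46 genes shared where called members of its lists were not counted. The cause was not tested. Leaving out 1 quiescent array gave 20 to 66 higher, 7 to 39 lower and 10 to 39 genes of the difference of differences. Without old activated array 4, an alternative chosen after seeing the data for its 6587 detected probes and array weight of 0.294, they numbered 31, 16 and 10. With the replicate block they numbered 37, 13 and 15; the numbers do not pair the samples. No named gene reversed its sign past the threshold. The exact p of 0.216 for detected probes stayed above the threshold without any 1 array, as did that of Ccn4, while those of Sparc, Thy1 and Saa3 stayed below it. For Sparc, Thy1 and Saa3 the groups do not overlap, so their exact p had to stay below it. Genes near background, such as Cdkn2a and Pparg, have too little signal for a difference to be seen.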

Other observations

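The 10 genes with the highest SD over the old arrays were Saa3, Fcgr4, Osm, Tpm3, Ppm1l, Mfsd7a, Tead4, Mzb1, Cox10 and Slc47a1. Fcgr4, an activating IgG receptor of myeloid cells, had 5.00, 10.03 and 12.03 as its lowest, median and highest old array, against 4.28, 6.69 and 7.67 in young arrays (difference 2.70 ± 0.82, adjusted p = 0.123). Osm, a cytokine of the interleukin 6 family, ran from 4.33 to 10.8 in old arrays and from 4.45 to 8.85 in young arrays. Cox10, needed for heme in cytochrome c oxidase, was at 5.07 and 5.35 on old arrays 3 and 5 and between 9.26 and 9.94 on the other 4, against 8.98 to 10.1 in young arrays. Tpm3, a tropomyosin, was at or below 5.92 on old arrays 3, 4 and 6 and above 9.3 on old arrays 1, 2 and 5.

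Groups that did not overlap were found for 39 genes higher (0.515%) and 48 genes lower (0.634%) in old FAPs, more than the 34 and 12 called. Among the uncalled named ones were Fosb, an immediate early gene, with 9.39 to 10.005 in old arrays and 7.90 to 9.26 in young arrays (adjusted p = 0.108), and Bhlhe40, a repressor of the clock, with 9.14 to 9.99 in old arrays and 8.42 to 8.997 in young arrays (adjusted p = 0.0657).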
